A study of Xenopus laevis with 8 samples.

Results

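Of the 21495 probes on these *Xenopus laevis* arrays, 25 carry a description that names a structural or contractile protein of muscle: muscle or alpha actin, myosin heavy or light chain, troponin, tropomyosin, titin, creatine kinase or the sarcoplasmic calcium ATPase. They were chosen by description alone, with the MyoD, Myf and Mef2 factors left out, and none of the descriptions used here named nebulin, myomesin or a cardiac actin. By role, 7 probes belong to the thick filament, 11 to the thin filament, 1 to titin and 3 to calcium and energy handling, while 3 name a non-muscle or unspecified myosin or a kinase of myosin light chain. The question for these probes is whether they were higher with DEX beside the myogenic factor *myod* after the 4.5 h of the experiment.

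Embryos were injected with 0.2 ng of mRNA for Noggin, a secreted inhibitor of bone morphogenetic protein signaling that turns ectoderm neural, so that all caps carried it. Together with it they received 1 ng of mRNA for hGR-XEBF3, a fusion of the transcription factor EBF3 to the hormone-binding part of the glucocorticoid receptor, or 0.4 ng of mRNA for hGR, the receptor part alone. Animal caps, explants of prospective ectoderm, were cut at stage 9 and kept for 4.5 h with or without 30 μM dexamethasone (DEX), the ligand that activates the fusion. Each of the 4 replicates was a separate experiment. On the 4 active EBF arrays, Cy3 held caps with hGR-XEBF3 and DEX. On the 4 DEX control arrays, Cy3 held caps with hGR and DEX. Cy5 held caps with hGR-XEBF3 and no DEX on all 8 arrays. The proteins were made from injected mRNA in explanted ectoderm, and dyes were not swapped. A log2 ratio of Cy3 to Cy5 above 0 means a higher level with DEX.

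In vertebrate muscle, thick filaments of myosin pull on thin filaments of actin. Calcium binding to troponin C moves the troponin complex and tropomyosin along actin and lets myosin attach, and the calcium ATPase of the sarcoplasmic reticulum pumps the calcium back. MyoD, Myf5, myogenin and Mrf4 are basic helix-loop-helix factors that commit cells to muscle and switch on such genes, often together with Mef2 factors. Alpha actin is among the first of them to appear in the somites of *Xenopus* embryos.

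The arrays came in 2 designs, with 1 spot a probe in replicates 1 and 2 and 2 spots a probe in replicates 3 and 4. A probe is called well above background here where the scanner software marked at least 0.5 of its spots so. On the 8 arrays this held for 51.8% to 60.8% of the probes in Cy3 and for 58.6% to 65.1% in Cy5. The number of arrays limits the precision of every value.

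Of the 25 members, 5 were upregulated and 2 were downregulated on the active EBF arrays at an adjusted p under 0.05 and at least 2-fold (limma with Benjamini-Hochberg adjustment over 21357 probes). Over all probes tested, 3.03% were called higher and 2.84% lower by the same rule, together 5.87%. Those called higher were an alpha actin, cardiac troponin C, a sarcoplasmic calcium ATPase, the myosin light chain MLC1av and fast troponin T. Those called lower were muscle creatine kinase and slow troponin I. The other 18 did not pass. By the methods' t-test on the intensities of the channels, MLC1av and *tnnc1* alone were called among the members, and 1.28% of all probes were. The median of the members' mean log2 ratios was 0.27, against 0.08 over all probes. Many of the genes gave little signal in caps without DEX: in Cy5, 8 members were well above background on 4 of 4 active EBF arrays and 7 on none. In Cy3, 13 were well above background on 4 of 4 arrays, and 6 members were so in neither channel on any active EBF array. Over all probes, 51.9% were well above background in Cy5 and 46.2% in Cy3 on 4 of 4 active EBF arrays. In neither channel on any of these arrays were 27% of all probes, so that mainly the Cy5 count of the members was low against all probes.

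**Figure D1:**
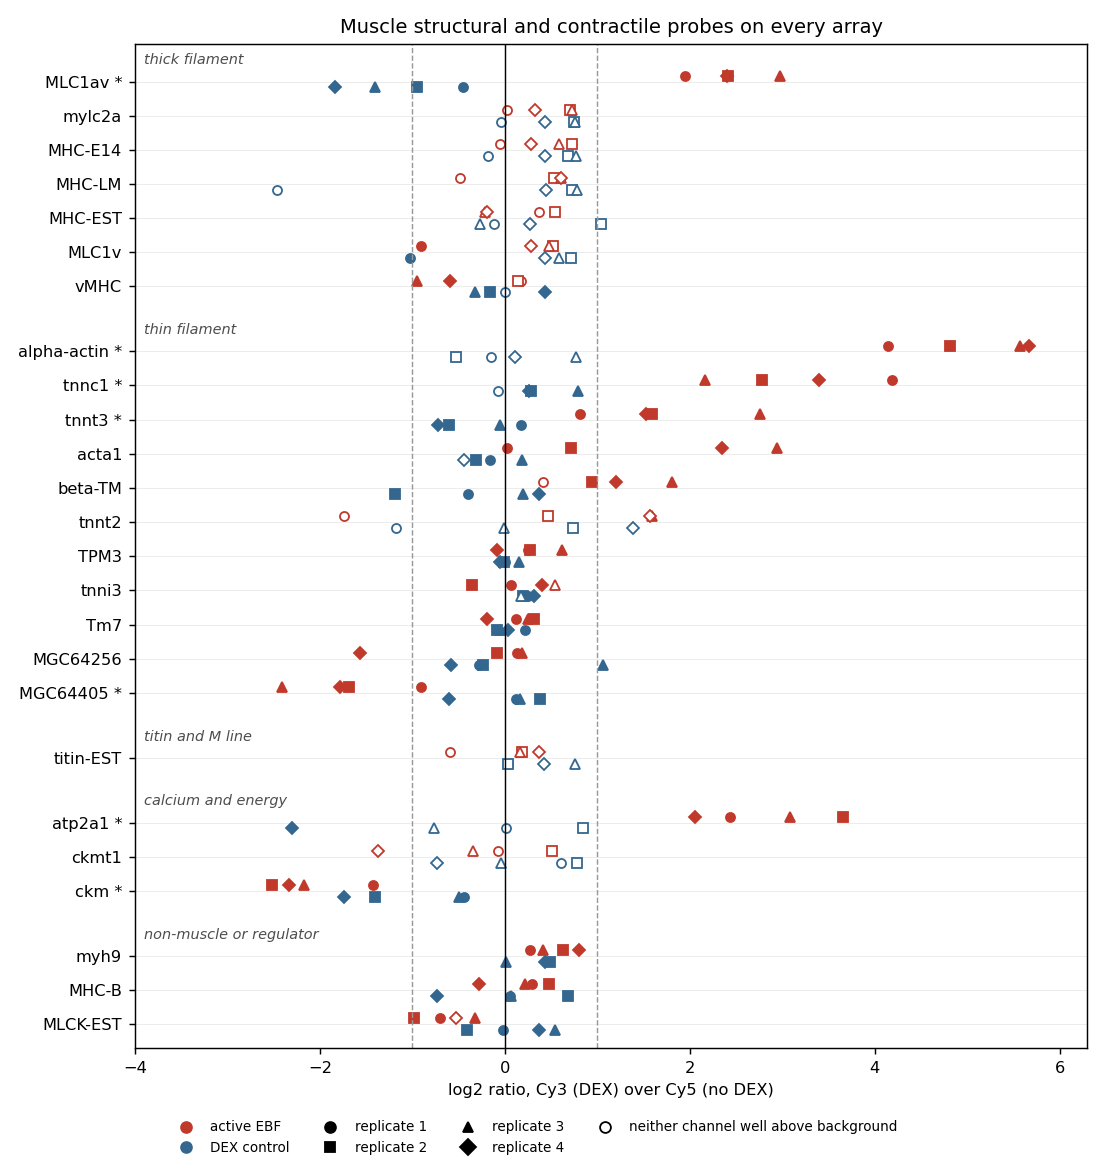
Log2 ratio of Cy3 (DEX) to Cy5 (no DEX) for each of the 25 members (rows, by role) on the 4 active EBF arrays (red) and the 4 DEX control arrays (blue), with 1 marker shape per replicate. Open markers are arrays on which neither channel was well above background, an asterisk marks the 7 members called on the active EBF arrays, and the dashed lines mark 2-fold; the points of alpha actin lie between 4.14 and 5.67 on the active EBF arrays and between −0.53 and 0.77 on the control arrays.

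The *myod* probes were the reference for the members. All arrays held caps kept for 4.5 h, so they give no order in time between *myod* and the members. The probe mf25, which the RefSeq annotation lists as *myod1.L*, had log2 ratios of 6.73, 6.46, 6.82 and 5.24 on the active EBF arrays of replicates 1 to 4, and of 1.03, 0.62, 0.71 and 1.23 on the DEX control arrays. The second *myod* probe, MGC52596, had 5.16, 5.27, 5.32 and 4.44 on the active EBF arrays. All 8 of these active EBF values lay above every control value of the same probe. The mean of mf25 was 6.31 ± 0.73 (SD, n = 4; adjusted p = 0.00063), at rank 2 of all probes, and that of MGC52596 was 5.05 ± 0.41 (SD, n = 4; adjusted p = 0.000448).

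The other myogenic factors did not pass. Of the *myogenin* probes, myogU1 was well above background on no array and had a mean log2 ratio of 0.30, while myogU2 was well above background in both channels on all 8 arrays and had a mean of −0.05 ± 0.11 (SD, n = 4; adjusted p = 0.803). The *mef2a* probe had a mean of −0.31 (adjusted p = 0.281). None of the descriptions used here named Myf5 or Mrf4.

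Both *myod* probes also differed between the arrays in the channel that held caps without DEX. The Cy5 signal of MGC52596 was 7220, 5473, 5574 and 11030 on the active EBF arrays of replicates 1 to 4 and 214, 113, 33 and 33.4 on the control arrays. After each array's median Cy5 signal was set equal, this was 36.2, 48.4, 109 and 228 times as much on the active EBF array as on the control array of the same replicate, and for mf25 it was 12.0, 16.3, 10.7 and 22.6 times as much. Of 21197 probes, 3 exceeded 5 times in every replicate. These 3 were all called higher with DEX, and 2 of them were the *myod* probes. The labels give the same injection and no DEX for Cy5 on both kinds of array, and the source of the difference was not tested. No spot of a member or myogenic factor was marked as saturated.

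Alpha actin, the protein that polymerizes into the thin filament, was represented by 2 probes with unlike values. The probe MGC53823, described as similar to alpha actin, had log2 ratios of 4.14, 4.81, 5.57 and 5.67 on the active EBF arrays of replicates 1 to 4. On the DEX control arrays it had −0.15, −0.53, 0.77 and 0.11. All active EBF values were far above all control values. Its signal with hGR-XEBF3 and DEX was 1087, 1071, 136 and 505, well above background on 4 of 4 arrays, and its signal in Cy5 was well above background on 0 of 4 arrays. As a mean over the 4 arrays, the level was therefore at least 12.8-fold higher with DEX. This bound sets the mean of the bright channel against, per array, the dimmest Cy5 signal among probes with all spots above that call. After the arrays' mean intensities were quantile-normalized it was 15.0-fold. The bound itself was not tested. The measured mean log2 ratio was 5.05 ± 0.72 (SD, n = 4; adjusted p = 0.000899, limma), at rank 14 of all probes, but it rests on those dim Cy5 signals. Under normexp background correction, which adds 50 to every signal and so shrinks the ratios of dim probes, it was 1.74 (adjusted p = 0.0249).

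The probe *acta1*, described as skeletal muscle alpha actin, had 0.03, 0.71, 2.94 and 2.35 on the active EBF arrays and −0.16, −0.32, 0.18 and −0.44 on the control arrays. Values of replicates 3 and 4 were high and those of replicates 1 and 2 were low, so that the active EBF array of replicate 1 lay within the control values. In replicates 1 and 2 its Cy5 signal was 342 and 250 and well above background, and in replicates 3 and 4 it was 11.4 on both arrays and not well above background. The mean was 1.51 ± 1.37 (SD, n = 4; adjusted p = 0.137). With the array design as a term in the fit the adjusted p was 0.0113, and within replicates 3 and 4 alone the mean was 2.65 against 0.37 within replicates 1 and 2.

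The troponin probes moved in both directions. The probe *tnnc1*, for the calcium-binding subunit of heart and slow muscle, had log2 ratios of 4.18, 2.79, 2.16 and 3.4 on the active EBF arrays. On the control arrays it had −0.08, 0.28, 0.79 and 0.27. The groups did not overlap. The mean was 3.13 ± 0.86 (SD, n = 4; 8.77-fold; adjusted p = 0.00642), and without replicate 4 the adjusted p was 0.0634. Under normexp correction the mean was 1.69 (adjusted p = 0.0323). Its signal in Cy5 was well above background on 3 of 4 active EBF arrays. A second probe described as cardiac troponin C, MGC64256, had 0.13, −0.09, 0.19 and −1.56 on the same arrays, around 0 apart from replicate 4. It was well above background in both channels on all 8 arrays, with a mean of −0.33 ± 0.83 (SD, n = 4; adjusted p = 0.528). *tnnc1* exceeded MGC64256 by 3.47 ± 1.31 on the log2 scale (SD, n = 4), in 4 of 4 replicates (exact sign-flip permutation test, two-sided p = 0.125, the smallest that 4 arrays can give).

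Fast troponin T (*tnnt3*), the subunit that ties the complex to tropomyosin in fast muscle, had 0.82, 1.60, 2.76 and 1.52 on the active EBF arrays and 0.18, −0.60, −0.05 and −0.73 on the control arrays. Every active EBF value was above every control value. The mean was 1.67 ± 0.80 (SD, n = 4; 3.19-fold; adjusted p = 0.0327). This call rested on 4 arrays: the adjusted p was 0.116 without replicate 2, 0.0558 without replicate 3 and 0.132 without replicate 4. Under normexp correction the mean was 1.04 (adjusted p = 0.131). The cardiac troponin T probe (*tnnt2*) had −1.73, 0.47, 1.59 and 1.57 and was well above background in Cy3 on 1 of 4 arrays (adjusted p = 0.619).

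Slow troponin I, the inhibitory subunit, fell. Its probe MGC64405 had −0.91, −1.69, −2.41 and −1.78 on the active EBF arrays and 0.13, 0.38, 0.17 and −0.61 on the control arrays. The active EBF values were all below the control values. It was well above background in both channels on all 8 arrays, and its Cy5 signal of 951 to 1653 on the active EBF arrays showed that the probe was bright in caps without DEX. The level was 3.24-fold lower with DEX (mean log2 ratio −1.70 ± 0.62, SD, n = 4; adjusted p = 0.0161), and the adjusted p was 0.0761 without replicate 2 and 0.0994 without replicate 4. Cardiac troponin I (*tnni3*) had values from −0.35 to 0.54 and a mean of 0.16 (adjusted p = 0.595).

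Tropomyosin winds along actin and covers its myosin-binding sites. The smooth muscle beta-tropomyosin probe had 0.41, 0.95, 1.81 and 1.20 on the active EBF arrays and −0.39, −1.19, 0.19 and 0.37 on the control arrays. Its groups did not overlap, but it missed the threshold with a mean of 1.09 ± 0.58 (SD, n = 4; adjusted p = 0.0512). The gamma tropomyosin probe (*TPM3*) had a mean of 0.27 and Tm7, annotated as *tpm1.L*, had 0.12. Both were well above background in both channels on all 4 active EBF arrays, and neither passed (adjusted p = 0.326 and 0.598).

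**Figure D2:**
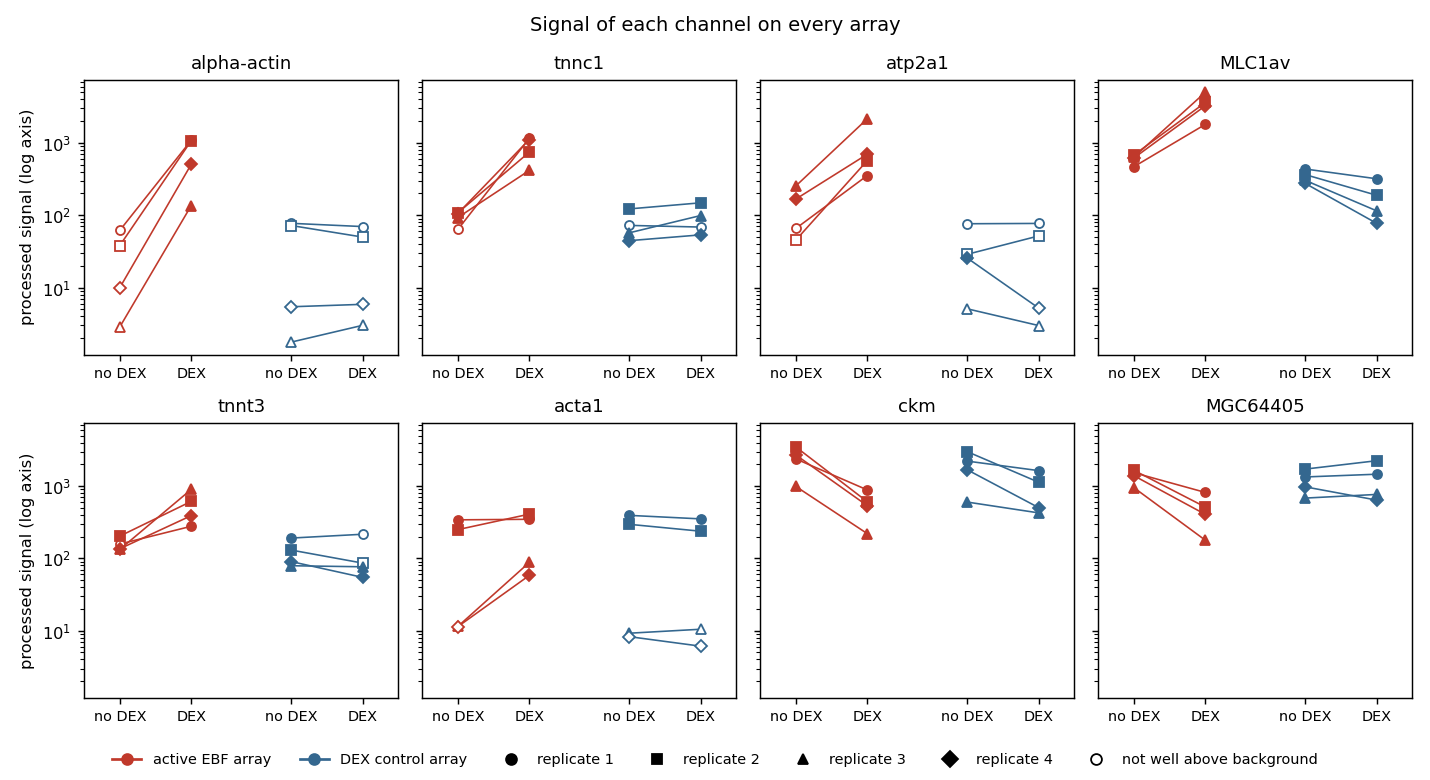
Processed signal (log axis) in caps without DEX (Cy5) and with DEX (Cy3) for 8 members, 1 line per array, on active EBF arrays (red) and DEX control arrays (blue), with filled markers well above background. The Cy5 signal of alpha actin stayed at or under 61.7 and below this call on all 4 active EBF arrays, whereas *ckm* and slow troponin I (MGC64405) started from 988 and 951 or more in Cy5 on the active EBF arrays.

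In the thick filament, 1 of 7 probes was upregulated. The light chain MLC1av, annotated as *myl4.L* and known as the light chain of atrial and embryonic muscle, had log2 ratios of 1.94, 2.41, 2.98 and 2.4 on the active EBF arrays. On the DEX control arrays it had −0.45, −0.95, −1.40 and −1.83. Its ratios lay above 0 on 4 of 4 active EBF arrays and below 0 on 4 of 4 control arrays. It was well above background in both channels on all 8 arrays. In Cy3 its signal was 1806, 3627, 5026 and 3268 with hGR-XEBF3 and DEX, and 319, 189, 115 and 77.1 with hGR and DEX. The mean on the active EBF arrays was 2.43 ± 0.42 (SD, n = 4; 5.40-fold; adjusted p = 0.0024), and leaving out any replicate kept the adjusted p between 0.00443 and 0.0351.

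The muscle myosin heavy chain members, the motor subunits, gave little signal. The probes for heavy chain LM, for heavy chain clone E14 and for a sequence tag similar to heavy chain were well above background in neither channel on any active EBF array, with means of 0.32, 0.39 and 0.12. Their signals do not measure a level in either kind of cap. The ventricular heavy chain probe, annotated as *myh15.L*, was well above background on the active EBF arrays of replicates 3 and 4 only, with log2 ratios of −0.95 and −0.59 there and 0.17 and 0.14 in replicates 1 and 2 (adjusted p = 0.426 over the 4 arrays). The light chains MLC1v and mylc2a had means of 0.10 and 0.44, and mylc2a was well above background in neither channel on any active EBF array. Outside the 25 members, 3 probes carry a muscle gene name without a description, and 0 of them were called. Of these, myHC was well above background in both channels on all 8 arrays, with a mean of 0.11 (adjusted p = 0.724, limma). The means of myl1 and mylpf were 0.04 and 0.12.

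The titin probe, a sequence tag similar to the protein that spans the sarcomere from Z disc to M line, was in neither channel well above background on any active EBF array and had a mean of 0.03.

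The probe *atp2a1* is annotated as *atp2a1.S*, the gene of the calcium ATPase of fast muscle. It had log2 ratios of 2.43, 3.65, 3.08 and 2.06 on the active EBF arrays and 0.01, 0.84, −0.77 and −2.3 on the control arrays. The active EBF values were all above the control values. The mean was 2.81 ± 0.70 (SD, n = 4; measured ratio 7.0-fold; adjusted p = 0.00506), and it was not called under normexp correction (1.47, adjusted p = 0.0875). In Cy5 it was not well above background in replicates 1 and 2, so that the ratios there are not exact, and it was so on the other 2 of 4 active EBF arrays, with a signal of 255 in replicate 3 and 167 in replicate 4, where the Cy5 signal of the control array was 5.07 and 25.5. After the median signals were set equal, that was 32.3 and 4.53 times as much, while for the other members the same ratio ran from 0.428 to 1.88 over all replicates.

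Muscle creatine kinase (*ckm*), which regenerates ATP in working muscle, was lower with DEX. It had −1.43, −2.51, −2.17 and −2.33 on the active EBF arrays and −0.44, −1.41, −0.50 and −1.74 on the DEX control arrays. All 8 values were below 0, and the groups overlapped. It was well above background in both channels on all 8 arrays. On the active EBF arrays it was 4.31-fold lower (mean log2 ratio −2.11 ± 0.48, SD, n = 4; adjusted p = 0.00491), and without replicate 4 the adjusted p was 0.051. Mitochondrial creatine kinase (ckmt1) was well above background on no array and had a mean of −0.32.

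Among the last 3 probes, the non-muscle heavy chain *myh9.L* had values from 0.28 to 0.81 on the active EBF arrays and a mean of 0.53 ± 0.23 (SD, n = 4; adjusted p = 0.086). It had no value on the control array of replicate 1, where its spot was marked as non-uniform, and was left out of the fits that need that array. Heavy chain B had a mean of 0.18 and the sequence tag similar to myosin light chain kinase had −0.63 (adjusted p = 0.511 and 0.068).

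**Figure D3:**
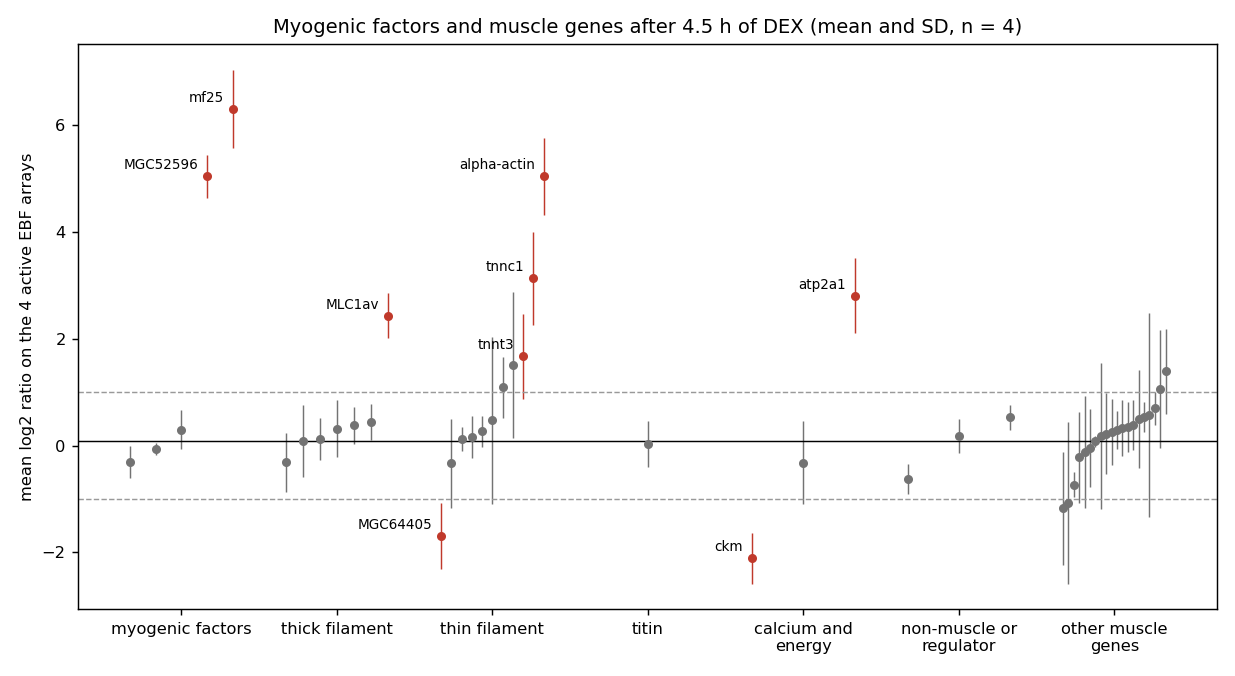
Mean log2 ratio on the 4 active EBF arrays (points) with SD (bars, n = 4) for the myogenic factors, the 25 members by role and 20 other muscle genes, with called probes in red. The solid line is the median of all probes (0.08) and the dashed lines mark 2-fold; the *myod* probes at 6.31 and 5.05 and alpha actin at 5.05 lie above the rest of the probes drawn.

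On the DEX control arrays, 0 of the 24 members tested were called, and 0% of all 21256 probes were (limma with Benjamini-Hochberg adjustment). Before adjustment, MLC1av with a mean log2 ratio of −1.16 and *ckm* with −1.02 had a p under 0.05 (limma) at 2-fold or more. By that rule 85 of all 21256 probes were lower and 36 higher. The p of mylc2a was also under 0.05, but its mean of 0.47 was short of 2-fold. It was well above background in neither channel on any control array. Without replicate 1, 2 members were called lower there, MLC1av and *ckm*, where 0.554% of all probes were. Within replicates 3 and 4 alone 3 members were, with *atp2a1* as the third, and 1.35% of all probes. Since these arrays set hGR with DEX against hGR-XEBF3 without DEX, an effect of DEX on the receptor part and an effect of the fusion without DEX cannot be told apart on them.

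The difference between the array groups removes what both share, including any dye effect. Of 24 members tested, 5 were higher and 1 was lower on the active EBF arrays than on the control arrays, where 2.42% and 1.44% of all 21197 probes were, together 3.86% (limma with Benjamini-Hochberg adjustment). The difference was 5.0 for alpha actin (adjusted p = 0.00026; 1.80 under normexp correction), 3.59 for MLC1av (adjusted p = 0.000474), 3.36 for *atp2a1* (adjusted p = 0.0208), 2.82 for *tnnc1* (adjusted p = 0.0052) and 1.97 for *tnnt3* (adjusted p = 0.0271) on the log2 scale. The size for alpha actin is not exact, since on the control arrays its probe was well above background in neither channel. The same holds for *atp2a1*, which was well above background there in Cy3 on 0 of 4 arrays and in Cy5 on 1. Slow troponin I differed by −1.71 (adjusted p = 0.0239). Under normexp correction *atp2a1* and *tnnt3* were not called (adjusted p = 0.0779 and 0.137). For *ckm* the difference was −1.09 (adjusted p = 0.178) and was not called in the main fit, which does not pair the arrays by replicate. With the replicate number as a block, which pairs the arrays, *ckm* was called lower (adjusted p = 0.038) and beta-tropomyosin was called higher, 8 members in all. Leaving out 1 replicate left between 2 and 5 members called, and alpha actin and MLC1av were called each time. Over all probes, 819 were called in the main fit of the difference, and from 0 to 974 across its alternatives, the replicate block among them.

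For 7 members, the 4 active EBF values and the 4 control values did not overlap: the 6 called in the difference and beta-tropomyosin. Over the 21197 probes with all 8 values, 10.1% did not overlap. The active EBF values lay wholly above the control values for 6 members and for 4.9% of all probes, and wholly below for 1 member and for 5.25% of all probes.

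The sizes differed between the array designs for some members. Replicates 1 and 2 were also scanned at 10 μm and replicates 3 and 4 at 5 μm, so that spots a probe, scan resolution and experiment cannot be told apart. Alpha actin had a mean of 4.48 in replicates 1 and 2 and of 5.62 in replicates 3 and 4, *tnnt3* had 1.21 and 2.14, and cardiac troponin T had −0.63 and 1.58. *tnnc1* (3.48 and 2.78), *atp2a1* (3.04 and 2.57), MLC1av (2.18 and 2.69) and *ckm* (−1.97 and −2.25) differed less between the designs. Within replicates 1 and 2 alone only alpha actin was called among the members, and 0.529% of all probes were. Within replicates 3 and 4 alone 10 members were called, with *acta1*, *tnnt2* and beta-tropomyosin added to the 7, and 13.8% of all probes were. The dimmest Cy5 signals well above background were 146 and 77.0 on the active EBF arrays of the 1-spot design, against 13.9 and 19.2 on those of the 2-spot design.

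**Figure D4:**
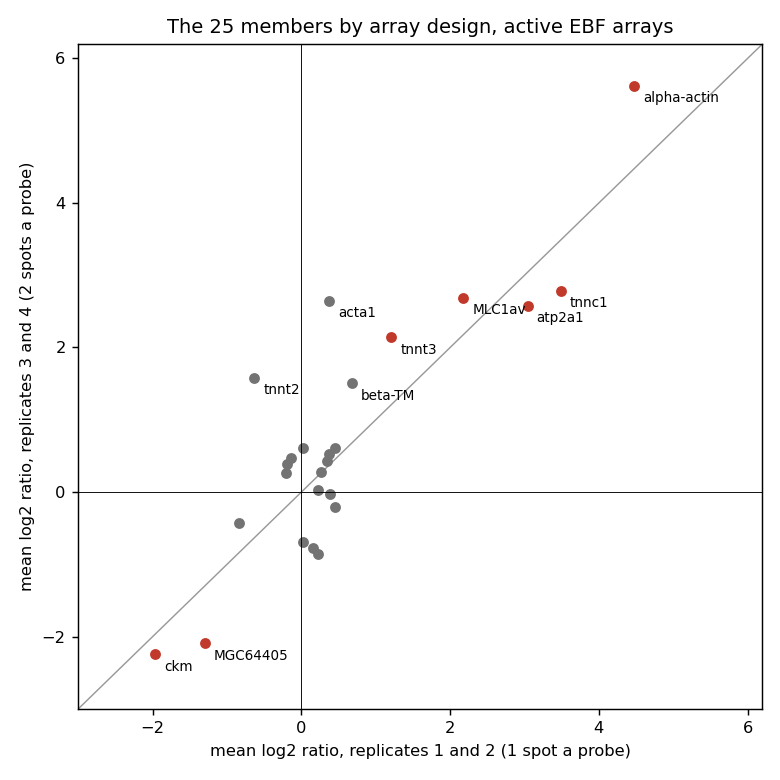
Mean log2 ratio of each of the 25 members on the active EBF arrays of replicates 1 and 2 (x axis, 1 spot a probe) against that of replicates 3 and 4 (y axis, 2 spots a probe), with the members called over all 4 arrays in red and the line of equal values. *acta1* stands at 0.37 and 2.65 and *tnnt2* at −0.63 and 1.58, away from the line.

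Other muscle genes were read from a list of Z-disc, membrane, receptor and metabolic genes. Of its 20 probes, 0 were called on the active EBF arrays (limma with Benjamini-Hochberg adjustment), where 5.87% of all probes were. In Cy3, 3 of them were well above background on 4 of 4 active EBF arrays and 10 on none. In neither channel on any of these arrays were 7 of the 20, so for those the lack of a call measures no level. The median of their mean log2 ratios was 0.28. Desmin, the intermediate filament of muscle, had 1.40 (adjusted p = 0.0526), with Cy3 well above background on 2 of 4 arrays. In the difference between the array groups, where 3.86% of all probes were called, 1 probe was called, *csrp3*, the muscle LIM protein of the Z disc. It had 0.56, 0.96, 0.96 and 0.33 on the active EBF arrays and −0.60, −1.83, −2.48 and −1.79 on the control arrays, all above 0 in the first group and all below 0 in the second. Its difference of 2.37 (adjusted p = 0.00772) came with a mean of 0.70 on the active EBF arrays and of −1.67 on the control arrays.

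Markers of tissues that caps could also form were read beside these genes. On the active EBF arrays, 3.03% of all probes were called higher and 2.84% lower. Of 9 heart probes, 1 was called higher on the active EBF arrays, *gata5b* (2.71, adjusted p = 0.00143). The heart probes had a median of 1.11 and ran from −0.25 to 2.71. Short of passing were *gata4* at 2.04, XNkx-2.3 at 2.03 and *tbx5* at 2.02 (limma, adjusted p = 0.154, 0.0512 and 0.0662). XNkx-2.3 and *tbx5* were above 0 and well above background in both channels on 4 of 4 active EBF arrays. *gata4* was well above background in neither channel on the active EBF arrays of replicates 1 and 2, where its ratios measure no level. In replicates 1 and 2 *gata4*, XNkx-2.3 and *tbx5* had 0.39, 1.18 and 0.94, against 3.69, 2.88 and 3.1 in replicates 3 and 4. For *gata5b* these means were 2.91 and 2.52. The *anf* probe was well above background on no array. Of 6 early mesoderm probes, 1 was called higher (Brat, 1.08, adjusted p = 0.012). In the difference between the array groups Brat was not called (0.97, limma, adjusted p = 0.0808), while *gata5b* was (2.61, adjusted p = 0.000332). The early mesoderm probes had a median of 0.85 and ran from −0.54 to 2.20, with *eomes* at 2.20 and *tbx6* at 1.75 (adjusted p = 0.101 and 0.155). Chordin had −0.54 and Xbra −0.14, and neither was called. The probe bra3 was well above background on no array. In replicates 1 and 2 *eomes* had 0.87 and *tbx6* 0.31, against 3.53 and 3.20 in replicates 3 and 4. Brat had 1.05 and 1.12 in the same order. Of 4 neural probes, the nrp1 probe LOC397764 was called higher (1.26, adjusted p = 0.00537) and NCAM lower (−1.51, adjusted p = 0.0284), and *sox3* had −0.87 (adjusted p = 0.0541). NCAM was also below 0 on 4 of 4 DEX control arrays, with a mean of −1.32. In the difference between the array groups NCAM was not called (−0.20, limma, adjusted p = 0.943), while LOC397764 was called higher (1.43, adjusted p = 0.00193). Of 3 epidermis probes 0 were called, with epidermal cytokeratin at −0.78 (adjusted p = 0.0182) short of 2-fold, and of 4 blood probes 0 were called. Their part in the muscle values was not tested, and in RNA from whole caps more cells of a type cannot be told apart from more RNA per cell.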

How the data were processed

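The authors hybridized Cy3- and Cy5-labeled cRNA to 8 Agilent arrays and deposited the scanner output of Feature Extraction (version 8.1.1.1 for replicate 1 and 9.1.3.1 for the others, per the file headers). The intensities used here are the processed signals the authors deposited, background-subtracted and LOWESS-normalized between the dyes by that software. The authors also deposited a table of log10 ratios of the same arrays, used as an alternative. Control spots and spots marked non-uniform were left out, log2 ratios of Cy3 to Cy5 were averaged over the spots of a probe, and limma 3.58.1 in R 4.3.3 was fitted over all probes with a value on every array of a comparison, two-sided. A call needed an adjusted p under 0.05 and at least 2-fold. An unpaired t-test of the channel signals, other corrections and filters, array design and left-out replicates were alternatives.

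Members and lists were chosen with earlier results of these data known. Named were called members, per role the strongest uncalled bright member, both actins, both cardiac troponin C probes, *ckm*, the muscle heavy chains and the myogenic factors. The remaining members, myHC, myl1, mylpf, *csrp3*, desmin and the markers were named after their values were seen. Same-numbered arrays of the 2 groups deviated together (correlations 0.591, 0.493, 0.366 and 0.574 over 21197 probes; −0.339 to 0.0483 for different numbers), so replicate numbers pair the arrays. The labels do not say whether their Cy5 RNA was 1 extract. In arrays of 21197 probes simulated with independent normal noise, some probes were given known changes on the log2 scale. For the active EBF comparison, limma recovered 68% of changes of 1.5, 68% of changes of 2 and 92% of changes of 3, with 4 false calls. The simulation left out the array designs, the background and the pairing of arrays, so its rates are not those of the real arrays. Gene names come from the files. Of the 25 members, 9 matched 1 symbol of the RefSeq annotation (assembly Xenopus_laevis v10.1), 6 several and 10 none.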

Additional observations from a re-analysis of the deposited data

Results flagged for a closer look

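In 6 of 59 sets of 4 arrays, 1 array stood apart from the other 3 by Dixon's test, which chance does in about 1 set in 20. Heavy chain LM had −0.48 on the active EBF array and −2.46 on the control array of replicate 1, where the other arrays of its groups had 0.53 to 0.61 and 0.44 to 0.78. MLC1v had −0.90 and −1.03 on the same 2 arrays, against 0.29 to 0.52 and 0.44 to 0.72 on the others, and the Cy5 signal of MLC1v was well above background on these 2 arrays alone. MGC64256 had −1.56 on the active EBF array of replicate 4, against −0.09 to 0.19. myogU2 had 0.49 on the control array of replicate 2.

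The log2 ratio differed between active EBF and DEX control arrays, in a test of that difference (limma), by 5.0 for alpha actin, 3.59 for MLC1av, 3.36 for *atp2a1*, 2.82 for *tnnc1*, 1.97 for *tnnt3* and −1.71 for MGC64405. Of these, MLC1av moved in opposite directions in the 2 groups, above 0 on 4 of 4 active EBF arrays and below 0 on 4 of 4 control arrays.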

How the results depend on the processing

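The 7 calls on the active EBF arrays became 1 within replicates 1 and 2, and 2 by the unpaired t-test (MLC1av and *tnnc1*). With 1 replicate left out they became 3 to 8, lowest without replicate 4. By normexp correction 5 of the 7 remained, without *tnnt3* and *atp2a1*, with smaller sizes for dim probes. Over all probes, 1254 calls on the active EBF arrays became 329 higher and 287 lower by normexp, 193 and 81 by the t-test, and 113 and 2961 calls within replicates 1 and 2 and within replicates 3 and 4. On the DEX control arrays, 0 became up to 496 (replicates 3 and 4), and in the difference 819 became 0 (replicates 1 and 2) to 974 (no fold threshold). Ratios of at least 2-fold on each of 4 arrays, a criterion chosen after seeing the data, held for 5 members. The share of all probes that meet this criterion was not computed, so this count cannot be set against one. On the DEX control arrays, 0 calls became 3 within replicates 3 and 4 and 0 to 2 with 1 replicate left out. The 6 calls in the difference became 3 with the deposited ratio table (13 members tested), 3 with dim probes left out (8 tested), 0 within replicates 1 and 2, and 2 to 5 with 1 replicate left out. The replicate block gave 8 and changed no other call among the members. It is among the alternatives of the difference that called at most 974 of all probes. Direction reversed for members and factors that were not called: within replicates 1 and 2, vMHC (0.16; difference 0.23), MGC64256 (0.023; difference 0.28), myogU2 (0.0008) and, in the difference, heavy chain E14 (0.084); within replicates 3 and 4, the heavy chain tag (−0.21) and, in the difference, heavy chain LM (−0.0031) and *mef2a* (0.031); by normexp, in the difference, the heavy chain tag (0.12), myogU1 (0.024) and *mef2a* (0.037). With 1 replicate left out, the heavy chain tag ran from −0.013 to 0.24 (difference −0.30 to 0.028), MGC64256 from −0.51 to 0.077, and the differences of heavy chain LM and E14 from −0.069 to 0.66 and from −0.098 to 0.0053. Both *myod* probes kept their calls on the active EBF arrays under all 13 alternatives. For 12 members, Cy3 fell below the background call on at least 1 active EBF array, and their ratios are limited by it.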
